A study of Mus musculus with 22 samples.

Results

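Cadherins are calcium-dependent adhesion proteins, and protocadherins are the largest branch of the same superfamily. The set described here is every protein-coding gene of the count table whose mouse symbol is Cdh followed by a number, or begins with Pcdh, and that had 10 or more counts in at least 3 libraries. It held 89 of the 48440 rows. By structure these were 5 type I classical cadherins, 12 type II classical cadherins, 3 other Cdh genes, 5 delta-1 and 5 delta-2 protocadherins, 2 other non-clustered protocadherins, and 14, 22 and 21 genes of the protocadherin alpha, beta and gamma clusters. The rule compared no groups, but it was set with earlier results of these data known. A gene could meet the count minimum through libraries of some genotypes alone.

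RNA was sequenced from 22 fresh-frozen mouse tumours. Combined tumours carried the SS18-SSX fusion in 1 allele (SS18-SSX+/-) and lacked both copies of Smarcb1 (Snf5-/-), and they were labelled Myf5Cre (4 libraries) or TATCre (4 libraries). Snf5-null tumours were labelled SNF5-/- without the fusion, again with Myf5Cre (3 libraries) or TATCre (5 libraries). SS18-SSX tumours carried the fusion (SS18-SSX+/-) with no Smarcb1 loss named, with Myf5Cre (3 libraries) or with no Cre stated (3 libraries). SS18-SSX is the fusion oncogene that defines synovial sarcoma, and Smarcb1, also called Snf5, is a core subunit of the SWI/SNF chromatin remodelling complex that the fusion protein joins. Myf5Cre is a Cre recombinase under control of Myf5, a gene of muscle precursors, and acts in cells of that lineage, while TATCre is a Cre protein that enters whichever cells it reaches. Age is not stated, no tumour-free tissue is among the samples, and the strain label rises by 1 from library to library after C57BL/6, so it was not used. Each library is called by its group and its title's tag. Snf5-null TATCre libraries N43L and N43R share a tag, and the labels do not say that each library came from its own animal, so p-values reflect only how these samples vary, and that variation may be technical. All combined and Snf5-null libraries share 1 number series in their descriptions and the SS18-SSX groups have others, so that series and the absence of Smarcb1 loss cannot be told apart. Each SS18-SSX group has its own series, so series and Cre label cannot be told apart between them.

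Classical cadherins bind like cadherins on neighbouring cells and hold beta-catenin, p120-catenin and, through them, the actin cytoskeleton at their cytoplasmic tails. Epithelia typically carry E-cadherin (Cdh1) and P-cadherin (Cdh3), mesenchyme and neurons N-cadherin (Cdh2) and cadherin-11 (Cdh11), and endothelium VE-cadherin (Cdh5). Synovial sarcoma is a soft-tissue tumour that can form epithelium-like glands beside spindle cells. The clustered protocadherins are encoded in tandem arrays, where single genes are switched on by promoter choice and give neurons distinct surface identities. Their products pair homophilically, and the delta protocadherins act in cell sorting and migration in embryos and the nervous system.

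Promoter sequence from RefSeq (GRCm38.p6) was at hand for 21 of the 89 members, and 4 are shown because these genes differed clearly between genotypes in the results that follow. Cdh22 (chr2:165234738-165234987, minus strand), Cdh24 (chr14:54641365-54641614, minus strand) and Pcdh8 (chr14:79771313-79771562, minus strand) were higher in both genotypes with the fusion than in Snf5-null tumours, and Cdh18 (chr15:23036213-23036462, plus strand) was higher in Snf5-null than in SS18-SSX tumours. Each line gives the 250 bases before the RefSeq start, 5′ to 3′ on the gene's strand, with every CG dinucleotide in capitals.
Cdh22: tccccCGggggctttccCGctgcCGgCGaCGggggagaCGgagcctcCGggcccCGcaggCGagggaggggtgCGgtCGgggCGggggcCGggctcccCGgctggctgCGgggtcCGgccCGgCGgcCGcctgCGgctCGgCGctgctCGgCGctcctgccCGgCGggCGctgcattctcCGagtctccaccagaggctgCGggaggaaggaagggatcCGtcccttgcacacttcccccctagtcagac
Cdh24: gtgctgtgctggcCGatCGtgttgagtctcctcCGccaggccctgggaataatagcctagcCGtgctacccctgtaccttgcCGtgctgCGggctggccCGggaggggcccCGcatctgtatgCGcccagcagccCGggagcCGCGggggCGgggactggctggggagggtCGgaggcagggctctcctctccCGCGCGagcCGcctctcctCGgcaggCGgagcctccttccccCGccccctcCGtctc
Pcdh8: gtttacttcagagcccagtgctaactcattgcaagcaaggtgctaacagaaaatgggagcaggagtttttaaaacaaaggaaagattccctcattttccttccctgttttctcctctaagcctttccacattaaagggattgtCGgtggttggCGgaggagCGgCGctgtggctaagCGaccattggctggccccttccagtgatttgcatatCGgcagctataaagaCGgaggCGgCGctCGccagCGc
Cdh18: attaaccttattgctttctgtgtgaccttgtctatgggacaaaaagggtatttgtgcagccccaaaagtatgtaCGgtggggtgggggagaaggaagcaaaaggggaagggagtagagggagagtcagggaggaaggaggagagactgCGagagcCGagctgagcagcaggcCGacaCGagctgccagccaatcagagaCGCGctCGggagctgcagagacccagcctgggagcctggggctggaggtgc
The motif searched was CG, which reads the same on both strands. Cdh22 held 30, and 5.94% of all 32851 promoter windows held as many or more. Cdh24 held 22 (14.8% of windows as many or more), Pcdh8 held 11 (35.6%) and Cdh18 held 8 (43%). Among other members named below, Pcdh10 held 22 and Pcdh18 held 23, and Pcdh20 held 3. The median was 10 over the 21 members and 6 over all windows. The E-box CACCTG or CAGGTG, searched on both strands and in the same windows, was found in 2 of the 21 members and in 17.2% of all windows.

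Library depth ran from 8642648 counts (SS18-SSX library A) to 25177722 counts (SS18-SSX Myf5Cre library N460). Levels are given as CPM, that is counts scaled to a common library size, after TMM adjustment. Smarcb1 followed the labels, at 0.909 to 3.66 CPM in combined tumours, 10.6 to 26.9 CPM in Snf5-null tumours and 47.1 to 111 CPM in SS18-SSX tumours. Within each genotype, the library whose level over all genes correlated least with its own group was combined TATCre N49 (mean r = 0.866), Snf5-null TATCre N1 (0.888) and SS18-SSX Myf5Cre N381 (0.867), and over the members alone all 4 combined TATCre libraries had a mean r of 0.636 to 0.663. Some libraries carried more RNA of other cell types. The summed level of 6 skeletal muscle markers was 143 to 1378 CPM in combined tumours and 78.9 to 14780 CPM in Snf5-null tumours. In SS18-SSX tumours it was 6314 CPM in library A and 2951 CPM in N381, against 1.95 to 167 CPM in the other 4. The summed level of 6 leucocyte markers was 24.8 to 244 CPM in combined, 620 to 2549 CPM in Snf5-null and 33.8 to 240.1 CPM in SS18-SSX tumours. In bulk tumours fewer cells of a type and less RNA per cell cannot be told apart, and the part of these admixtures in the differences below was not tested.

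Per kilobase of exon not shared with another gene, the members with the highest mean level were Pcdh20 and Pcdhgc3 in combined tumours (39.9 and 38.1 CPM per kb), Pcdhgc3 in Snf5-null tumours (83.7, from 59.4 to 105) and Cdh11 in SS18-SSX tumours (36.8, from 15.3 to 61.0). Pcdh20 exceeded Pcdhgc3 in 3 of 8 combined libraries, and without library 78777 its mean was 25.0 and that of Pcdhgc3 39.6 CPM per kb. Pcdhgc3 and Cdh11 were among the 3 most abundant members in each genotype. Cdh22 ranked 4 in combined tumours (19.0 CPM per kb) and 4 in SS18-SSX tumours (21.0 CPM per kb) but averaged 0.665 CPM per kb in Snf5-null tumours. Cdh4 averaged 28.7 CPM per kb in SS18-SSX tumours and ranked 3 there. At the other end, several members averaged under 1 CPM per kb in every genotype, Cdh12, Cdh7, Cdh8 and Cdh19 among them.

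**Figure D1:**
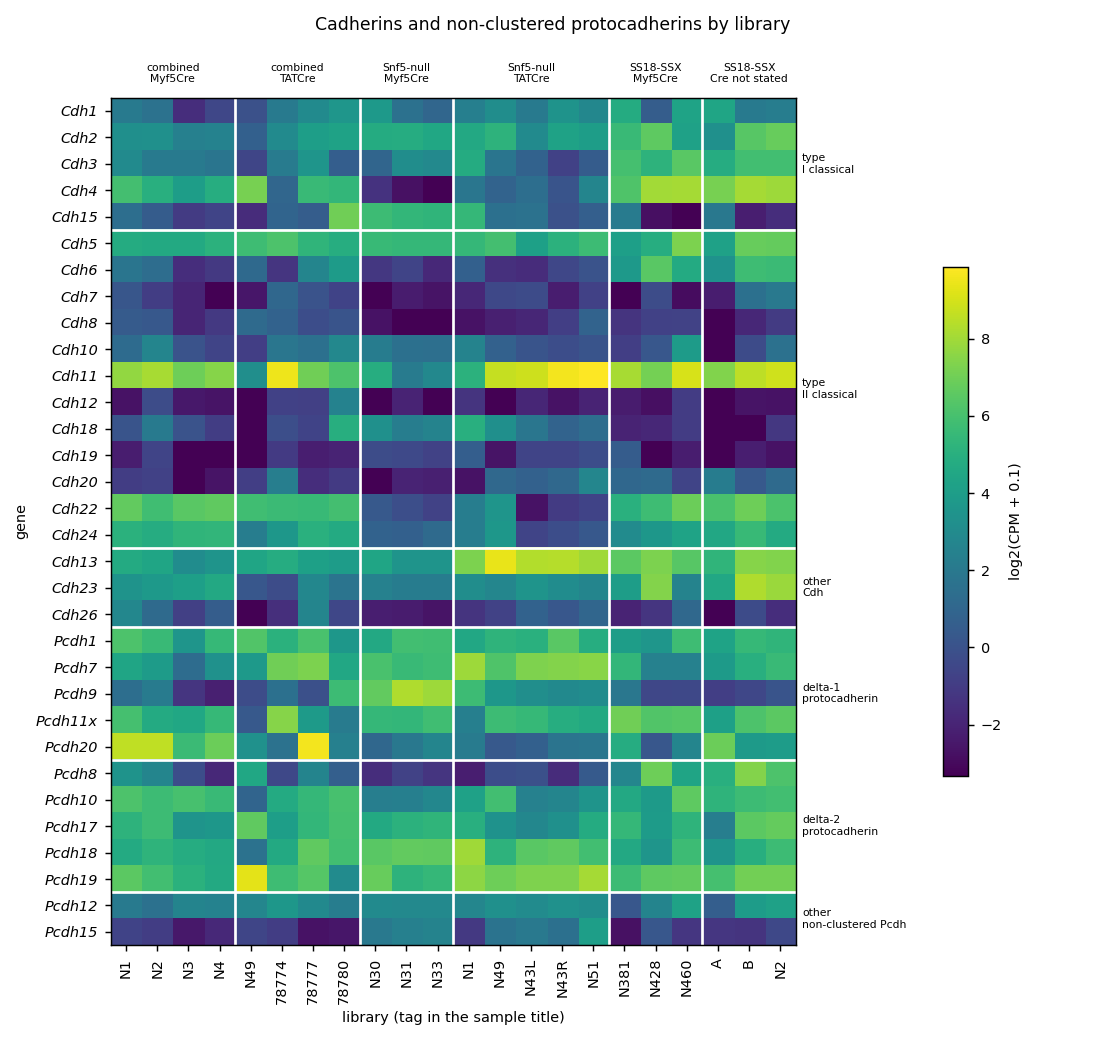
Levels of the 32 cadherins and non-clustered protocadherins (rows, by class) in the 22 libraries (columns, by group), as log2(CPM + 0.1). Cdh22 and Cdh24 are bright in nearly all libraries with the fusion and dark in most Snf5-null libraries, Pcdh15 shows the opposite, and Cdh11 is bright in most libraries of every genotype and dimmer in Snf5-null Myf5Cre.

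Of the 89 members, 87 had enough counts to be tested (Cdh12 and Pcdha4 had not). In combined against Snf5-null tumours 22 members were higher and 8 lower at an adjusted p below 0.05 in edgeR's quasi-likelihood test, which is 34.5% of 87 against 49.6% of all 18929 genes tested. The median log2 fold change was 0.44 over the members and 0.24 over all genes. In combined against SS18-SSX tumours 6 were higher and 16 lower (25.3%, against 45.0% of all genes), with a median of -0.06 over the members and -0.09 over all genes. In Snf5-null against SS18-SSX tumours 9 were higher and 23 lower (36.8%, against 48.2% of all genes), with a median of -0.76 over the members and -0.06 over all genes. The members' share of calls was thus below that of all genes in each comparison. The 3 comparisons share libraries, so their calls are not independent of each other. By direction, 29.1% of all genes were higher and 20.5% lower in the first comparison, 23.1% and 21.9% in the second, and 22.3% and 25.9% in Snf5-null against SS18-SSX. The 29.1% moved with the setting: it was 15.9%, 16.5% or 18.2% without N30, N31 or N33 of Snf5-null Myf5Cre and 23.7% with RLE scaling (lower in 19.3%, 20.5%, 21.5% and 22.6%). Across the 6 groups at once, 42 of 87 members differed in edgeR's test, against 71.9% of all genes. Cdh1, Cdh26, Pcdh18, Pcdha8, Pcdhac1, Pcdhb15, Pcdhga4, Pcdhgb1 and Pcdhgb7 missed this test (adjusted p from 0.0548 to 0.343), though called in a genotype comparison. Libraries did not overlap in 1, 4 and 11 members in the 3 comparisons, against 9.33%, 8.38% and 18.3% of all genes. In 41 members none of the 3 genotype comparisons passed the test.

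Among the 5 type I classical cadherins, 1 rose and 1 fell in combined against Snf5-null tumours (40% called, against 49.6% of all genes). In combined against SS18-SSX tumours 4 fell and none rose (80%, against 45.0%). In Snf5-null against SS18-SSX tumours 3 fell and 1 rose (80%, against 48.2%). Cdh4 (R-cadherin, of retina, brain and kidney; chr2:179442431-179899373, plus strand, GRCm38) had the largest fold changes of the class in both comparisons with Snf5-null tumours. Its lowest, median and highest levels were 1.97, 37.2 and 144 CPM in combined tumours, 0, 1.35 and 6.30 CPM in Snf5-null tumours, and 74.2, 250.5 and 269 CPM in SS18-SSX tumours. Every Snf5-null library lay below every SS18-SSX library, and combined TATCre library 78774 alone among the combined libraries lay within the Snf5-null range. The log2 fold change was 6.23 ± 0.79 (SE) in combined against Snf5-null (adjusted p = 6.79e-06), -2.21 ± 0.59 in combined against SS18-SSX (0.00604) and -8.44 ± 0.88 in Snf5-null against SS18-SSX (1.60e-06).

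P-cadherin (Cdh3) was lower in both genotypes that lack Smarcb1 than in SS18-SSX tumours. It had 0.586, 4.20 and 11.7 CPM (lowest, median, highest) in combined, 0.492, 2.61 and 27.7 CPM in Snf5-null, and 28.3, 58.4 and 88.7 CPM in SS18-SSX tumours. The SS18-SSX libraries did not overlap with either other genotype. Cdh3 was lower by 3.54 ± 0.76 in combined and by 3.10 ± 0.78 in Snf5-null against SS18-SSX on the log2 scale (edgeR adjusted p = 0.00129 and 0.00331). Its difference between combined and Snf5-null was -0.44 ± 0.69 (adjusted p = 0.615). The summed level of 7 epithelial and keratinocyte markers (Epcam, keratins and others) was 1.17 to 48.5 CPM in combined, 3.07 to 21.8 CPM in Snf5-null and 20.9 to 114 CPM in SS18-SSX libraries, and its part in the Cdh3 difference was not tested.

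N-cadherin (Cdh2) had 1.54, 8.59 and 19.2 CPM (lowest, median, highest) in combined, 7.87, 23.5 and 36.9 CPM in Snf5-null, and 9.84, 66.8 and 113 CPM in SS18-SSX tumours. All pairs of genotypes overlapped, and the lowest SS18-SSX value was library A, the one with the most muscle RNA of its genotype. Cdh2 fell by 2.75 ± 0.53 in combined against SS18-SSX on the log2 scale (edgeR adjusted p = 0.000534). It also fell in combined against Snf5-null (-1.35 ± 0.49, adjusted p = 0.0301), but this call was lost without combined TATCre 78774, combined Myf5Cre N3 or Snf5-null TATCre N49 (-1.13 to -1.28, adjusted p up to 0.0658) and within TATCre libraries (-0.94, 0.313). The fall in Snf5-null against SS18-SSX (-1.40 ± 0.52, adjusted p = 0.034) was lost without any 1 of 9 libraries, namely N428, N381, B or N2 of SS18-SSX, N30, N31 or N33 of Snf5-null Myf5Cre, and N1 or N4 of combined Myf5Cre. It was smallest without SS18-SSX N428, at -0.88 (adjusted p = 0.179).

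E-cadherin (Cdh1) was a minor transcript throughout, at 0.233, 3.59 and 11.9 CPM in combined, 1.94, 5.97 and 14.0 CPM in Snf5-null, and 1.39, 12.4 and 27.6 CPM in SS18-SSX tumours, with overlap among all genotypes. Its difference between combined and SS18-SSX (-1.85 ± 0.71, edgeR adjusted p = 0.0398) was lost without any 1 of 8 libraries. These were N49 or 78774 of combined TATCre, N3 or N4 of combined Myf5Cre, N51 of Snf5-null TATCre, N381 or N460 of SS18-SSX Myf5Cre, and A of SS18-SSX with no Cre stated, and the adjusted p was 0.05 without Snf5-null TATCre N49. It was lost as well in a fit of genotype alone (-1.69, 0.0652) and within Myf5Cre libraries (-3.14, 0.0582). The difference was smallest without A, at -1.27 (adjusted p = 0.161), and N381 (27.6 CPM) and A (21.2 CPM) were the SS18-SSX libraries with the most Cdh1. M-cadherin (Cdh15), a marker of satellite cells and myoblasts, was scattered by library, at 128.9 CPM in combined TATCre 78780 and 0.220 to 2.57 CPM in the other 7 combined libraries. It was at 39.9, 42.0 and 51.7 CPM in Snf5-null Myf5Cre and 43.3 CPM in Snf5-null TATCre N1, and at 0.874 to 3.03 CPM in the other 4 Snf5-null libraries. In SS18-SSX tumours it was 0 to 4.32 CPM, highest in N381 and A. The summed level of 6 satellite cell and myoblast markers was 396 CPM in combined 78780 and 8.15 to 150.0 CPM in the other combined libraries. It was 577 to 1312 CPM in Snf5-null Myf5Cre, 2253 CPM in Snf5-null N1 and 63.2 to 618 CPM in the other Snf5-null libraries. It was 427 and 522 CPM in SS18-SSX N381 and A and 56.0 to 74.5 CPM in the other SS18-SSX libraries. The part of these cells in the Cdh15 levels was not tested. Cdh15 was higher in Snf5-null than in SS18-SSX tumours (log2 3.98 ± 1.48, adjusted p = 0.0328), a call lost without Snf5-null N1 (2.79, 0.0843) or without N428, N460, B or N2 of SS18-SSX (3.86 to 3.89, up to 0.0661), and it was 6.97 without SS18-SSX N381 (0.00701).

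**Figure D2:**
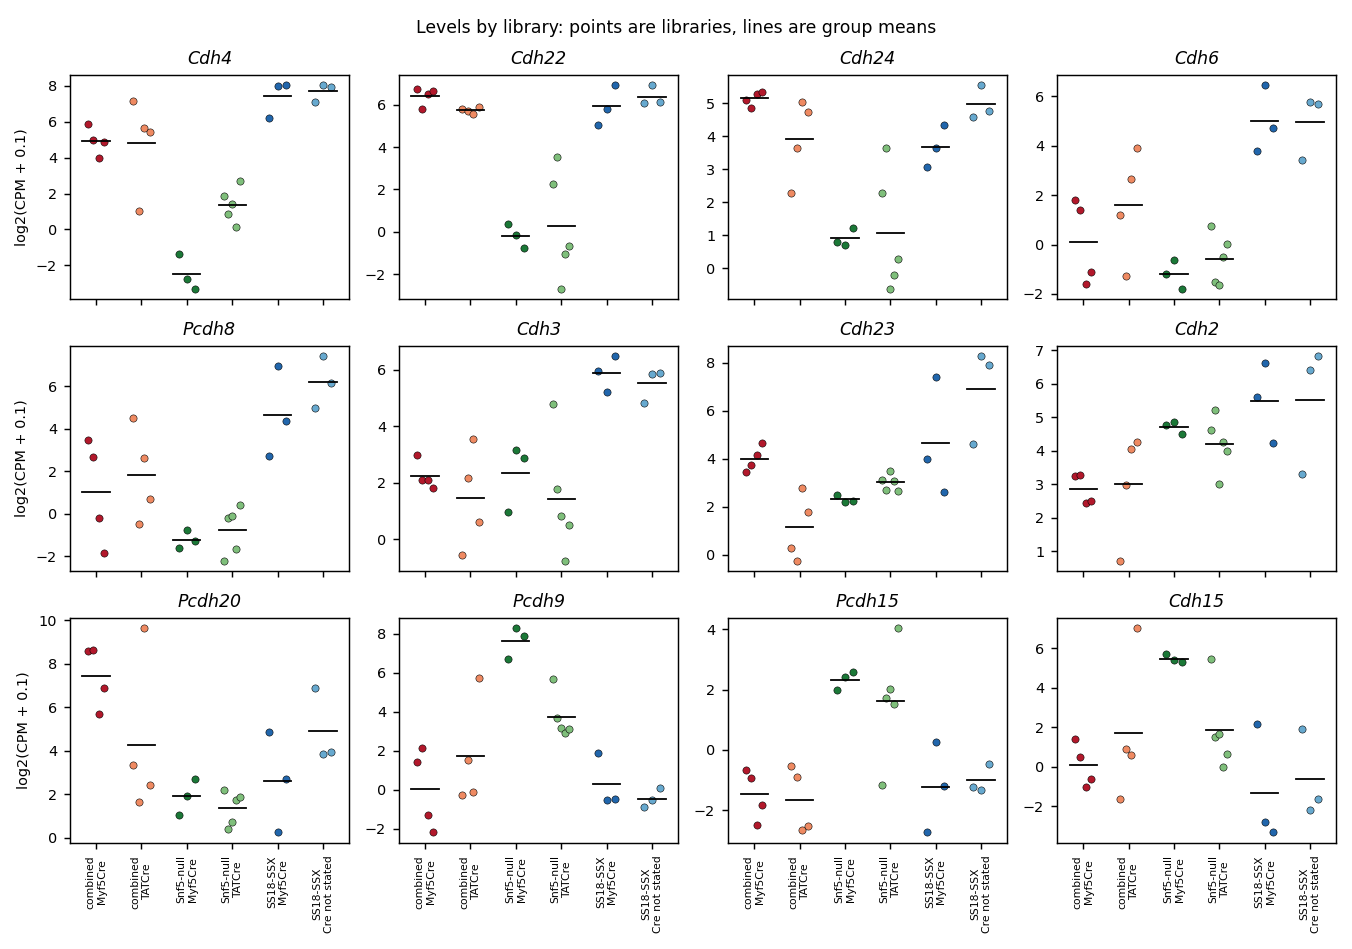
Levels of 12 members in each of the 22 libraries (points), as log2(CPM + 0.1), by group, with combined tumours left, Snf5-null in the middle and SS18-SSX right. Cdh4, Cdh22, Cdh6 and Pcdh8 lie lower in Snf5-null than in SS18-SSX tumours with no overlap, Cdh3 lies highest in SS18-SSX tumours, and Pcdh9 lies higher in Snf5-null than in SS18-SSX tumours.

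Of the 12 type II classical cadherins 11 were tested. In combined against Snf5-null tumours 4 of these rose and none fell (Cdh22, Cdh24, Cdh6 and Cdh8), 36.4% called against 49.6% of all genes. In combined against SS18-SSX tumours 1 rose (Cdh18) and 1 fell (Cdh6), 18.2% against 45.0%. In Snf5-null against SS18-SSX tumours 4 fell (Cdh22, Cdh24, Cdh6 and Cdh11) and 1 rose (Cdh18), 45.5% against 48.2%. Cdh22 (chr2:165111507-165234853, minus strand), which is known mainly from brain, had the sharpest split. It stood at 47.3, 57.7 and 105 CPM (lowest, median, highest) in combined, 0.0551, 0.667 and 11.5 CPM in Snf5-null, and 33, 67.9 and 122 CPM in SS18-SSX tumours. Each of the 14 libraries with the fusion exceeded each of the 8 without it. The log2 fold change was 5.34 ± 0.76 in combined against Snf5-null (edgeR adjusted p = 2.25e-05), -0.18 ± 0.62 in combined against SS18-SSX (0.829) and -5.51 ± 0.78 in Snf5-null against SS18-SSX (2.20e-05). Cdh22 was the 1 member whose libraries did not overlap in the first comparison, and the promoter with 30 CG dinucleotides printed above is its own. Part of that window lies inside the annotated gene.

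Cdh24 (chr14:54631231-54641364, minus strand) went the same way as Cdh22 with overlap. It had 4.76, 30.8 and 40.5 CPM in combined, 0.551, 1.59 and 12.4 CPM in Snf5-null, and 8.24, 22.1 and 47.0 CPM in SS18-SSX tumours. Among libraries with the fusion, the overlap came from combined TATCre N49 (4.76 CPM) and 78774 (12.3 CPM) and SS18-SSX Myf5Cre N381 (8.24 CPM). On the Snf5-null side it came from TATCre N49 (12.4 CPM) and N1 (4.77 CPM). Cdh24 rose by 3.29 ± 0.59 in combined against Snf5-null (edgeR adjusted p = 0.000224), though not within TATCre libraries alone (2.23, adjusted p = 0.12). It was lower by 2.98 ± 0.60 in Snf5-null against SS18-SSX (adjusted p = 0.000555).

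Cdh6 (K-cadherin, of the developing kidney and neural crest; chr15:13028701-13173675, minus strand) had 0.233, 2.36 and 14.9 CPM in combined, 0.188, 0.443 and 1.57 CPM in Snf5-null, and 10.6, 38.9 and 88.9 CPM in SS18-SSX tumours. Snf5-null and SS18-SSX libraries did not overlap, combined TATCre 78780 alone reached into the SS18-SSX range, and the 2 lowest SS18-SSX libraries were A and N381. Cdh6 fell by 6.30 ± 0.91 in Snf5-null and by 3.71 ± 0.75 in combined against SS18-SSX (edgeR adjusted p = 2.83e-05 and 0.000744). It rose in combined against Snf5-null (2.59 ± 0.75, adjusted p = 0.0087), a call lost within Myf5Cre libraries (2.03, 0.153) and within TATCre libraries (2.99, 0.0576).

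Cdh18, a cadherin of the brain (chr15:22549022-23474418, plus strand), went the opposite way, and its printed promoter lies inside the annotated gene, at a later start. It had 0, 0.866 and 31.2 CPM in combined, 1.75, 5.30 and 31.9 CPM in Snf5-null, and 0, 0.161 and 0.404 CPM in SS18-SSX tumours. All Snf5-null libraries exceeded all SS18-SSX libraries, and the highest values were Snf5-null TATCre N1 and combined TATCre 78780. Cdh18 rose by 5.47 ± 1.32 in Snf5-null against SS18-SSX (edgeR adjusted p = 0.00246). Its rise in combined against SS18-SSX (4.31 ± 1.26, adjusted p = 0.01) was lost without 78780 (2.29, 0.0565).

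The remaining type II genes were low or scattered. Cdh8 rose in combined against Snf5-null tumours (3.17 ± 0.80, edgeR adjusted p = 0.00342) at medians of 1.06 and 0.0924 CPM, and the call was lost within TATCre libraries (1.41, 0.25) and in a fit of genotype alone (1.71, 0.0795). Cdh11 (OB-cadherin, of mesenchyme and bone) was called lower in Snf5-null than in SS18-SSX tumours (-1.95 ± 0.74, adjusted p = 0.0362), yet its mean level was 333 ± 372 CPM in Snf5-null and 328 ± 166 CPM in SS18-SSX tumours (SD, n = 8 and 6). The fit gives the 2 Cre groups equal weight on the log scale, and with genotype alone the difference was 0.02 (adjusted p = 0.987). The call was also lost without any 1 of 8 libraries, namely N1 or N4 of combined Myf5Cre, N31 or N33 of Snf5-null Myf5Cre, N381 or N460 of SS18-SSX Myf5Cre, and B or N2 of SS18-SSX (-1.48 to -1.86, adjusted p up to 0.123). VE-cadherin (Cdh5) ran from 25.5 to 71.1 CPM in combined, from 17.8 to 60.5 CPM in Snf5-null and from 17.0 to 151 CPM in SS18-SSX tumours and passed no genotype test in edgeR. In combined against SS18-SSX tumours its edgeR value was -0.96 (adjusted p = 0.0735), while DESeq2 called it lower (-1.02, adjusted p = 0.0457), as did edgeR without combined TATCre N49, Snf5-null TATCre N1 and SS18-SSX Myf5Cre N381 together (-1.25, 0.0283) or without N381, N428 or A of SS18-SSX alone (-1.13 to -1.19, adjusted p up to 0.0467). The summed level of 7 endothelial markers was 149 to 238 CPM in combined, 140 to 364 CPM in Snf5-null and 102 to 419 CPM in SS18-SSX tumours. Cdh7, Cdh10, Cdh19 and Cdh20 passed no genotype test in edgeR either.

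The 3 other Cdh genes are atypical. T-cadherin (Cdh13) lacks a cytoplasmic tail and is held in the membrane by a GPI anchor. It had 8.30, 19.7 and 28.2 CPM in combined, 11.1, 203 and 689 CPM in Snf5-null, and 39.0, 122 and 174 CPM in SS18-SSX tumours. All combined libraries lay below all SS18-SSX libraries, while the Snf5-null libraries split by Cre label, as described below. Cdh13 fell by 2.65 ± 0.37 in combined against SS18-SSX (edgeR adjusted p = 4.94e-05) and by 1.92 ± 0.35 in combined against Snf5-null (0.000254). Within Myf5Cre libraries alone, combined and Snf5-null differed by 0.09 (adjusted p = 0.893).

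Cdh23, the tip-link cadherin of inner-ear hair cells, had 0.740, 8.73 and 25.0 CPM in combined, 4.48, 6.35 and 11.2 CPM in Snf5-null, and 5.95, 97.7 and 307 CPM in SS18-SSX tumours. Within SS18-SSX tumours N428, B and N2 had 171 to 307 CPM and N460, N381 and A had 5.95 to 24.1 CPM, which overlaps with the other genotypes. Cdh23 fell by 3.97 ± 0.66 in combined and by 4.13 ± 0.70 in Snf5-null against SS18-SSX (edgeR adjusted p = 0.000172 and 0.000121). Without SS18-SSX N428 the second value was -2.68 (0.000497), and within Myf5Cre libraries the first was -2.10 (0.0836). Cdh26 rose in combined against Snf5-null tumours (2.75 ± 0.96, adjusted p = 0.0235) at no more than 6.84 CPM in any library.

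Among the 10 delta protocadherins, 3 rose and 3 fell in combined against Snf5-null tumours, 1 rose and 1 fell in combined against SS18-SSX tumours, and 3 rose and 3 fell in Snf5-null against SS18-SSX tumours, where the shares of all genes called were 49.6%, 45.0% and 48.2%. Pcdh8 (paraxial protocadherin, of the early mesoderm; chr14:79766775-79771312, minus strand) was ordered like Cdh4 and Cdh6. It had 0.182, 3.79 and 22.8 CPM in combined, 0.116, 0.405 and 1.22 CPM in Snf5-null, and 6.5, 51.6 and 170 CPM in SS18-SSX tumours. Snf5-null and SS18-SSX libraries did not overlap, and the lowest SS18-SSX value was N381. Pcdh8 rose by 3.64 ± 0.93 in combined against Snf5-null (edgeR adjusted p = 0.00381), though not within Myf5Cre libraries alone (3.56, 0.0847). It fell by 3.51 ± 0.86 in combined and by 7.15 ± 1.11 in Snf5-null against SS18-SSX (adjusted p = 0.00321 and 5.73e-05).

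Pcdh20, a delta-1 protocadherin (chr14:88464743-88471396, minus strand), was uneven within combined tumours. Its level was 118, 51.1, 389 and 385 CPM in combined Myf5Cre N4, N3, N2 and N1, and 10.2, 3.02, 790 and 5.33 CPM in combined TATCre N49, 78774, 78777 and 78780. It was 1.20 to 6.38 CPM in Snf5-null tumours and 1.09 to 118 CPM in SS18-SSX tumours, where A and N381 were highest. All 4 combined Myf5Cre libraries exceeded every Snf5-null library, and 2 of 4 combined TATCre libraries did not. Pcdh20 rose in combined against Snf5-null (6.02 ± 1.24, edgeR adjusted p = 0.000705), and without 78777 the value was 3.51 (0.000762). Its rise in combined against SS18-SSX (3.17 ± 1.11, adjusted p = 0.0268) was 0.65 without 78777 (0.447) and was also lost without N428, N460, B or N2 of SS18-SSX (2.90 to 3.03, up to 0.0632). Its fall in Snf5-null against SS18-SSX (-2.85 ± 1.07, adjusted p = 0.0339) was lost without N30, N31 or N33 of Snf5-null Myf5Cre (-2.52 to -2.92, up to 0.0944) and was -1.88 without N381 (0.154) and -1.83 without A (0.155).

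Pcdh9 was highest in Snf5-null tumours, at 0.121, 1.72 and 53.2 CPM in combined, 7.48, 32.1 and 313 CPM in Snf5-null, and 0.437, 0.617 and 3.62 CPM in SS18-SSX tumours. Every Snf5-null library exceeded every SS18-SSX library and 7 of 8 combined libraries, the exception being combined TATCre 78780. Pcdh9 rose by 5.89 ± 1.13 in Snf5-null against SS18-SSX (edgeR adjusted p = 0.000358) and fell by 3.59 ± 0.88 in combined against Snf5-null (0.00286), the second not within TATCre libraries alone (-0.33, 0.86). Pcdh15, a partner of Cdh23 in the hair-cell tip link and not a delta gene, had 0.0584, 0.302 and 0.586 CPM in combined, 0.349, 3.93 and 16.4 CPM in Snf5-null, and 0.0496, 0.329 and 1.09 CPM in SS18-SSX tumours. Only Snf5-null TATCre N1 of its genotype lay within the range of the others. Pcdh15 fell by 4.09 ± 0.73 in combined against Snf5-null and rose by 3.49 ± 0.79 in Snf5-null against SS18-SSX (adjusted p = 0.000199 and 0.00142).

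Pcdh7 and Pcdh18, both also higher in Snf5-null tumours, were at moderate levels. The medians of Pcdh7 were 18.3, 118 and 23.1 CPM and those of Pcdh18 were 27.4, 95.1 and 27.8 CPM in combined, Snf5-null and SS18-SSX tumours. Both overlapped between genotypes. Pcdh7 had 127 and 152 CPM in combined TATCre 78774 and 78777, against 48.8 to 68.1 CPM in Snf5-null Myf5Cre. Pcdh18 had 99.1 CPM in combined TATCre 78777 and 37.0 CPM in Snf5-null TATCre N49. Pcdh18 was among the called members that missed the threshold across the 6 groups (edgeR adjusted p = 0.0548). The log2 fold changes of Pcdh7 and Pcdh18 were -1.65 ± 0.55 and -1.48 ± 0.52 in combined against Snf5-null, and 2.04 ± 0.62 and 1.76 ± 0.58 in Snf5-null against SS18-SSX (edgeR adjusted p from 0.0108 to 0.0241). Pcdh10 (OL-protocadherin) went the opposite way, with medians of 50.6, 6.58 and 45.3 CPM in the same order of genotypes. It rose by 2.09 ± 0.59 in combined against Snf5-null and fell by 2.15 ± 0.62 in Snf5-null against SS18-SSX (adjusted p = 0.0075 and 0.00806). Within Snf5-null tumours Pcdh10, like Cdh22 and Cdh24, was highest in TATCre N49 (59.1 CPM) and N1 (18.8 CPM). Pcdh1, Pcdh11x, Pcdh12, Pcdh17 and Pcdh19 passed no genotype test in edgeR.

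The 57 clustered protocadherins sit side by side on chromosome 18. Alpha and gamma genes splice onto exons that their whole cluster shares, and the sources do not say how reads there were assigned, so values of single alpha and gamma genes are uncertain. Each beta gene is a single exon with close copies beside it. In combined against Snf5-null tumours 13 of 56 tested clustered genes rose and 2 fell, in combined against SS18-SSX tumours 4 rose and 8 fell, and in Snf5-null against SS18-SSX tumours 3 rose and 12 fell. These are 26.8%, 21.4% and 26.8% of the clustered genes, against 49.6%, 45.0% and 48.2% of all genes.

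Sums over each cluster are given as a description, with no test. The alpha cluster summed to 10.9 ± 7.8 CPM in combined, 11.2 ± 9.8 CPM in Snf5-null and 29.0 ± 18.6 CPM in SS18-SSX tumours (SD, n = 8, 8 and 6). The beta cluster summed to 451 ± 169, 380.0 ± 135 and 405 ± 109 CPM, and the gamma cluster to 319 ± 132, 469 ± 88.0 and 308 ± 94.2 CPM in the same order. Without Pcdhgc3 the gamma sums were 190.3 ± 97.9 CPM in combined, 187 ± 78.6 CPM in Snf5-null and 207 ± 108 CPM in SS18-SSX tumours. A median of 4, 5 and 6 of 14 alpha genes, 21, 21 and 21.5 of 22 beta genes and 21 of 21 gamma genes in each genotype had 10 or more counts in a library.

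Pcdhgc3, a C-type gamma gene that many tissues outside the nervous system express (chr18:37806364-37841873, plus strand), had 91.2, 104 and 202 CPM in combined, 201, 262 and 354 CPM in Snf5-null, and 60.9, 98.7 and 164 CPM in SS18-SSX tumours. Snf5-null libraries exceeded all SS18-SSX libraries and all but combined TATCre N49, which stood at the lowest Snf5-null level. Pcdhgc3 fell by 1.18 ± 0.21 in combined against Snf5-null and rose by 1.53 ± 0.23 in Snf5-null against SS18-SSX (edgeR adjusted p = 0.000216 and 5.08e-05). It took 41.4 ± 8.3% of all gamma counts in combined, 61.2 ± 11.7% in Snf5-null and 35.6 ± 16.2% in SS18-SSX tumours (SD over libraries). Pcdhgc5, the other called C-type gamma gene, had medians of 2.45, 13.5 and 2.73 CPM in the same order. It fell by 1.84 ± 0.53 in combined against Snf5-null and rose by 1.86 ± 0.59 in Snf5-null against SS18-SSX (adjusted p = 0.00814 and 0.0138), and Pcdhgc4 passed no test.

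**Figure D3:**
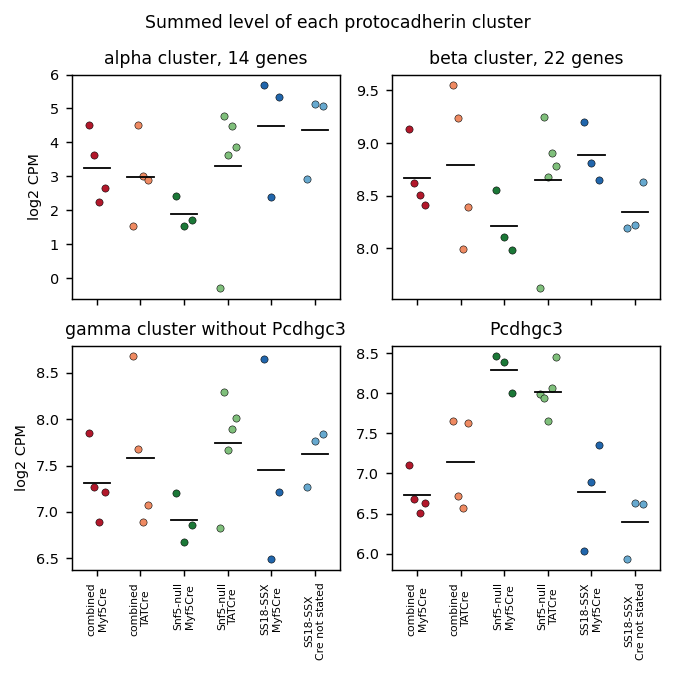
Summed level per library (points) of the alpha and beta protocadherin clusters and of the gamma cluster without Pcdhgc3, and the level of Pcdhgc3, as log2 CPM, by group. Pcdhgc3 lies at 201 CPM or more in all 8 Snf5-null libraries, while the gamma sum without it overlaps among the 3 genotypes.

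Of the gamma A and B genes, Pcdhga3, Pcdhgb1 and Pcdhgb7 rose in combined against Snf5-null tumours (2.26 ± 0.73, 2.40 ± 0.80 and 1.95 ± 0.65, edgeR adjusted p = 0.0157, 0.0188 and 0.0197). Pcdhgb7 had 42.6 CPM in combined TATCre 78777 and 1.09 to 12.5 CPM in the other combined libraries. Pcdhga3 had 0.225, 9.24 and 53.2 CPM in combined, 1.69, 4.03 and 18.4 CPM in Snf5-null, and 0.547, 3.27 and 7.40 CPM in SS18-SSX tumours, with overlap. Without combined TATCre 78774 its value was 1.39 against Snf5-null (adjusted p = 0.0729) and 1.59 against SS18-SSX (0.063, where all libraries gave 2.45 and 0.017). Without N31 or N33 of Snf5-null Myf5Cre the first call was lost as well (2.07 and 2.09). The Pcdhgb1 call was lost without combined TATCre N49 (1.55, adjusted p = 0.0677) or any 1 Snf5-null Myf5Cre library (2.25 to 2.29, up to 0.0645), within Myf5Cre libraries (2.50, 0.0793) and within TATCre libraries (2.08, 0.204). Pcdhga10 fell by 1.71 ± 0.62 in combined and by 2.64 ± 0.66 in Snf5-null against SS18-SSX (adjusted p = 0.032 and 0.00307).

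In the alpha cluster, Pcdhac2, a C-type gene, was the clearest. It had 0.233, 0.801 and 3.21 CPM in combined, 0, 0.787 and 3.74 CPM in Snf5-null, and 1.65, 8.62 and 19.4 CPM in SS18-SSX tumours, with overlap. It fell by 3.24 ± 0.75 in combined and by 4.13 ± 0.84 in Snf5-null against SS18-SSX (edgeR adjusted p = 0.00219 and 0.000612), the second -6.26 without Snf5-null N30 (0.000316). Pcdha8 and Pcdha12 fell in combined, and Pcdha12, Pcdhac1 and Pcdha1 in Snf5-null, against SS18-SSX tumours (log2 from -2.17 to -4.89 among these calls). Pcdha1 had 2 counts over all Snf5-null libraries and 278 over all SS18-SSX libraries, of which 3 of 6 held any. It met the count minimum only through libraries with the fusion, so its choice as a member is not independent of this difference. Its call was lost without Snf5-null N31, SS18-SSX N460 or SS18-SSX B, and the ratio of pooled CPM, SS18-SSX over Snf5-null, was 175 with a counting interval of 48.1 to 1455 (95%). Pcdha2 was the 1 alpha gene that rose in combined against Snf5-null (4.13 ± 1.25, edgeR adjusted p = 0.012), with 89 counts in 8 of 8 combined and 17 counts in 3 of 8 Snf5-null libraries, and the call was lost with genotype alone (2.47, 0.0849).

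In the beta cluster 9 of 22 genes rose and none fell in combined against Snf5-null tumours, where 29.1% of all genes rose in the same fit. These were Pcdhb1, Pcdhb6, Pcdhb8, Pcdhb12, Pcdhb15, Pcdhb18, Pcdhb20, Pcdhb21 and Pcdhb22, with log2 fold changes from 0.85 to 3.79. Without any 1 Snf5-null Myf5Cre library the all-gene share was 15.9% to 18.2%, and beta genes were not counted in those fits, so the 2 cannot be compared. In combined against SS18-SSX tumours Pcdhb18, Pcdhb21 and Pcdhb22 rose and Pcdhb2, Pcdhb3, Pcdhb6 and Pcdhb10 fell. Pcdhb2 had 0.303, 2.79 and 8.66 CPM in combined, 0.875, 6.12 and 16.6 CPM in Snf5-null, and 11.7, 15.5 and 44.1 CPM in SS18-SSX tumours. Combined and SS18-SSX libraries did not overlap for Pcdhb2, nor for Pcdhb3, whose ranges were 0.242 to 7.30 CPM in combined and 10.4 to 19.2 CPM in SS18-SSX tumours. Pcdhb2 fell by 2.51 ± 0.59 and Pcdhb3 by 2.38 ± 0.59 in combined against SS18-SSX (edgeR adjusted p = 0.00242 and 0.00345). Pcdhb6 had 0.776 to 17.1 CPM in combined, 1.38 to 5.84 CPM in Snf5-null and 13.6 to 48.7 CPM in SS18-SSX tumours, and only the last 2 did not overlap (-3.12 ± 0.63, adjusted p = 0.000545). Its rise in combined against Snf5-null (1.49 ± 0.57, adjusted p = 0.0358) was lost in 11 of 22 fits that left out 1 library, 6 of which removed an SS18-SSX library and 5 N1, N2 or 78777 of combined or N31 or N33 of Snf5-null (0.84 without combined N1, adjusted p = 0.2). That rise was also lost with RLE scaling (1.37, 0.0556), with no low-count filter (1.36, 0.0705), within Myf5Cre libraries (1.40, 0.263) and within TATCre libraries (1.40, 0.159). Its fall in combined against SS18-SSX (-1.63 ± 0.58, adjusted p = 0.0282) was lost without combined Myf5Cre N4, SS18-SSX N460 or SS18-SSX N2. Pcdhb1 rested on few counts, 28 in combined, 1 in Snf5-null and 162 in SS18-SSX tumours, so the ratio of combined to Snf5-null was 32.2 with a counting interval of 5.32 to 1317, and its call was lost without combined TATCre 78777 (3.17, adjusted p = 0.0758). Pcdhb1 met the count minimum only through libraries with the fusion, so its choice as a member is not independent of its low Snf5-null level.

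The beta genes also differed by position, a pattern and a split noticed in these values and given as a description. In combined against SS18-SSX tumours the log2 fold change followed the order of the 22 genes on the chromosome, with Pearson's r = 0.86 and Spearman's rho = 0.89 across genes, which share libraries and neighbouring sequence and are not independent. Of Pcdhb1 to Pcdhb11 none rose and 4 fell (median -1.11), and of Pcdhb12 to Pcdhb22 3 rose and none fell (median 0.64). In Snf5-null against SS18-SSX tumours 5 of the first 11 fell (median -1.36), and 1 rose and 1 fell among the last 11 (median 0.12). The log2 fold change went with gene order there as well (r = 0.62, rho = 0.62), and both comparisons share the SS18-SSX libraries. In combined against Snf5-null tumours 3 of the first and 6 of the last 11 rose (medians 0.42 and 0.85), with r = 0.09 and rho = 0.22.

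**Figure D4:**
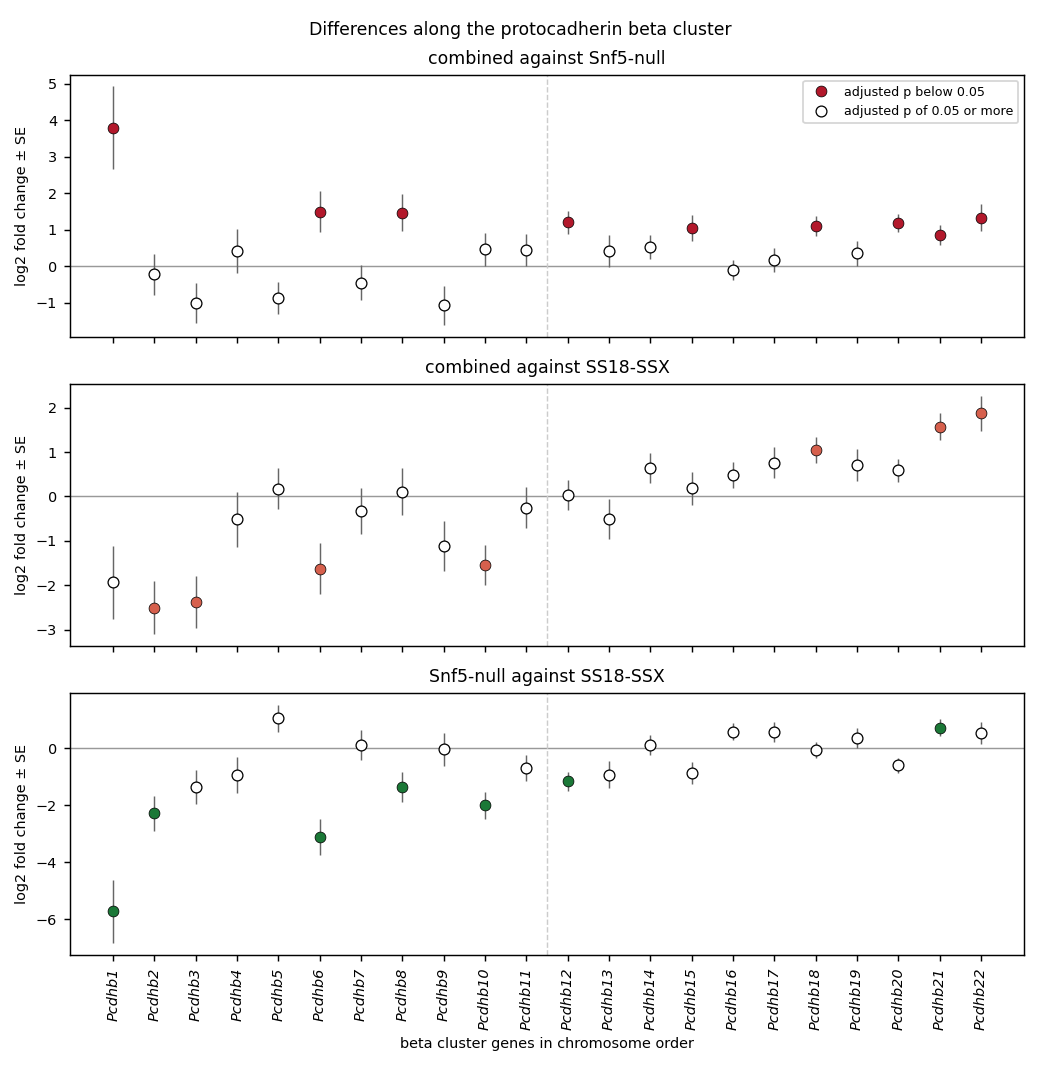
Log2 fold change (points, with SE as bars) of the 22 beta protocadherins in chromosome order for 3 comparisons, with a dashed line between gene 11 and gene 12. In combined against SS18-SSX tumours the values climb from a median of -1.11 left of the line to 0.64 right of it.

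Cre label was compared within genotype. In Snf5-null tumours, Myf5Cre against TATCre, 4 of 87 members fell and none rose, where 4.97% of all genes passed the test, 1.78% higher and 3.19% lower. The median log2 fold change was -0.97 over the members (69 negative, 18 positive) and -0.05 over all genes. Cdh13 had 21.1, 11.2 and 11.1 CPM in Myf5Cre N30, N31 and N33, against 151, 689, 322, 336 and 255 CPM in TATCre N1, N49, N43L, N43R and N51. The groups did not overlap, and Cdh13 fell by 4.60 ± 0.62 (edgeR adjusted p = 0.000737), a call kept whichever library was left out. Cdh11 had 29.6, 4.43 and 6.94 CPM in Myf5Cre, against 35.8, 419, 459, 778 and 928 CPM in TATCre libraries in the same order. TATCre N1 lay close to the Myf5Cre libraries, and Cdh11 fell by 5.26 ± 1.27 (adjusted p = 0.0222), a call lost without N31 (-4.83, 0.143) or N33 (-4.93, 0.136).

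Cdh4 also fell with Myf5Cre in Snf5-null tumours, at 0.282, 0.0498 and 0 CPM in Myf5Cre and 0.983 to 6.30 CPM in TATCre libraries, without overlap. Its log2 fold change was -4.68 ± 1.22 (edgeR adjusted p = 0.0332), and the call was lost without N43L, N51, N30, N31 or N33 (-4.16 to -6.47, up to 0.184). Pcdhga5 had 1.62 to 2.48 CPM in Myf5Cre and 3.43 to 25.6 CPM in TATCre libraries, without overlap. It fell by 2.74 ± 0.70 (adjusted p = 0.0305), a call lost without N49, N43L, N43R, N30, N31 or N33 (-2.32 to -2.95, up to 0.158) and with N43L and N43R summed as 1 sample (-2.53, 0.0624). In all, 14 members did not overlap between the Cre labels of Snf5-null tumours, which 17.0% of all genes did not. Pcdh9 was among them, at 105, 313 and 240.1 CPM in Myf5Cre against 7.48 to 51.5 CPM in TATCre libraries, but its difference of 3.62 ± 1.16 missed the threshold (adjusted p = 0.0771).

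In combined tumours, Myf5Cre against TATCre, edgeR called 0 of 87 members and 1.82% of all genes, and 12 members had an unadjusted p below 0.05. The median log2 fold change was -0.41 over the members (53 negative, 34 positive) and -0.06 over all genes. DESeq2 called 4 members, and of all 19644 genes it called 386 higher and 1087 lower. Libraries did not overlap in 4 members (Cdh23, Pcdha1, Pcdhga5 and Pcdhgb6), against 7.94% of all genes. The test of whether the Cre difference was itself unlike between combined and Snf5-null tumours passed for 3 members, 2 higher and 1 lower, where 2.42% of all genes passed, 1.32% higher and 1.10% lower. Cdh13 differed by 4.31 ± 0.74 on the log2 scale (edgeR adjusted p = 0.00714), since the Cre difference was -0.29 ± 0.48 in combined and -4.60 ± 0.62 in Snf5-null tumours, and the call held whichever library was left out. Pcdhgb6 differed by 4.69 ± 1.12 (adjusted p = 0.0334), with 10.2 to 25.7 CPM in Myf5Cre against 2.04 to 10.0 CPM in TATCre libraries of combined tumours, and 1.44 to 4.12 CPM against 5.30 to 34.5 CPM in Snf5-null tumours. The Cre labels did not overlap in either genotype and lay in opposite order. The Pcdhgb6 call was lost without N3 or N4 of combined Myf5Cre, N49 or N43L of Snf5-null TATCre, or N30, N31 or N33 of Snf5-null Myf5Cre (4.19 to 5.17, up to 0.122).

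Pcdh9 differed by -6.56 ± 1.70 in the same test (edgeR adjusted p = 0.0462). This was lost in 15 of 22 fits that left out 1 library, with -3.27 (0.178) without combined TATCre 78780 and -6.16 to -7.39 without N1, N2, N3 or N4 of combined Myf5Cre, N49, N43L, N43R or N51 of Snf5-null TATCre, N30, N31 or N33 of Snf5-null Myf5Cre, or A, B or N2 of SS18-SSX. It was also lost with N43L and N43R summed (-6.40, 0.0781). The same test missed the threshold for Cdh11 (5.02 ± 1.48, adjusted p = 0.0729) and Cdh4 (3.88 ± 1.44, 0.151). In SS18-SSX tumours the number series differs along with the Cre label, and the 2 cannot be told apart. There, Myf5Cre against no Cre stated, edgeR called 0 of 87 members and 2.11% of all genes, and 10 members had an unadjusted p below 0.05. The median log2 fold change was 0.44 over the members (33 negative, 54 positive) and 0.09 over all genes. DESeq2 called 1 member, and of all 18231 genes it called 768 higher and 595 lower. Libraries did not overlap in 9 members, against 17.3% of all genes. The satellite cell and myoblast sum was 577 to 1312 CPM in Snf5-null Myf5Cre, against 63.2 to 2253 CPM in Snf5-null TATCre. Of 5 fibroblast markers 1 fell with Myf5Cre in Snf5-null tumours, Pdgfra, at 8.44 to 18.5 CPM in Myf5Cre against 110.5 to 719.8 CPM in TATCre libraries, and their sum was 3580 to 8346 CPM against 5065 to 12110 CPM. Of 5 neuronal markers 1 rose, Snap25, at 206 to 233 CPM in Myf5Cre against 1.43 to 20.9 CPM in TATCre libraries, and their sum was 221 to 276 CPM against 6.99 to 153 CPM. Pdgfra, the 1 fibroblast marker called, lay in the same order as Cdh11 and Cdh13. Snap25, the 1 neuronal marker called, lay in the same order as Pcdh9. In TATCre N1 the neuronal sum was 153 CPM with Snap25 at no more than 20.9 CPM, so other markers of the list made up most of it. A single marker does not stand for a cell type, and the part of any cell type in these Cre differences was not tested.

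**Figure D5:**
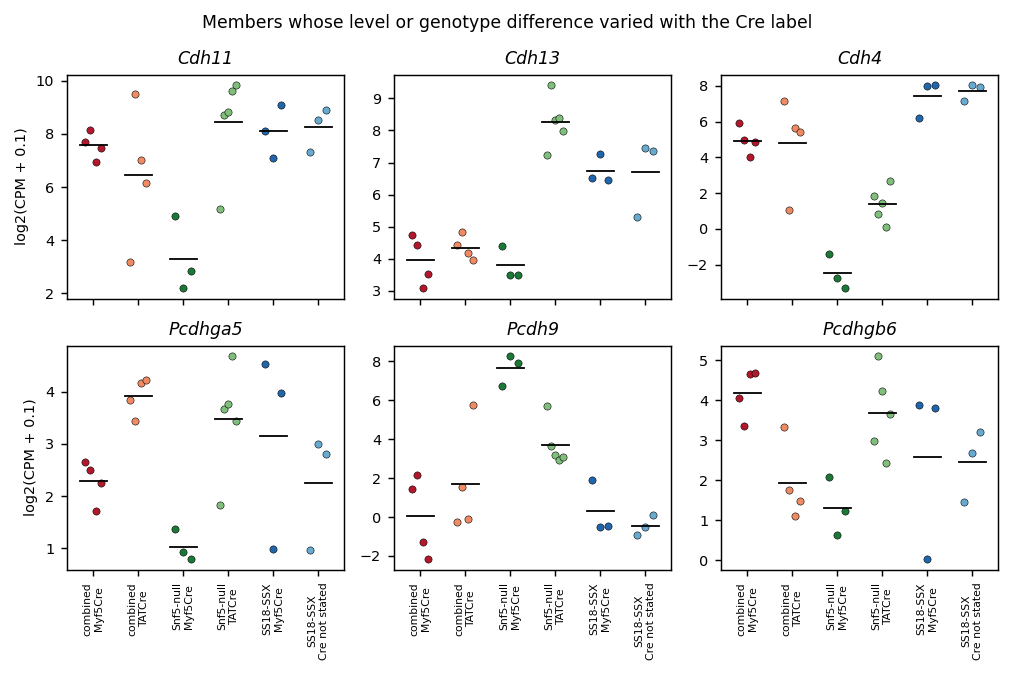
Levels of 6 members per library (points), as log2(CPM + 0.1), by group, with Myf5Cre left of TATCre within combined and Snf5-null tumours. Cdh11, Cdh13, Cdh4 and Pcdhga5 lie lower in Snf5-null Myf5Cre than in Snf5-null TATCre, and Pcdhgb6 lies in opposite order in combined and Snf5-null tumours.

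Genes that work with cadherins were read from the same fit, in which 29.1% of all genes rose and 20.5% fell in combined against Snf5-null, 23.1% and 21.9% in combined against SS18-SSX, and 22.3% and 25.9% in Snf5-null against SS18-SSX tumours. Of 12 cytoplasmic partners, 3 rose and 4 fell in combined against Snf5-null, none rose and 7 fell in combined against SS18-SSX, and 1 rose and 3 fell in Snf5-null against SS18-SSX tumours (medians 0.05, -0.59 and -0.40). Arvcf, a p120-catenin relative, fell by 1.81 ± 0.25 in combined and by 2.46 ± 0.26 in Snf5-null against SS18-SSX (edgeR adjusted p = 4.85e-05 and 2.00e-06), and alpha-catenin (Ctnna1) fell by 0.86 ± 0.14 in combined against Snf5-null and by 0.56 ± 0.15 in combined against SS18-SSX. Of 18 tested genes of 25 in other branches of the superfamily, 3 rose and 2 fell, 1 rose and 7 fell, and 2 rose and 9 fell in the same 3 comparisons. The planar polarity cadherins Celsr1 and Celsr2 rose by 3.96 ± 0.90 and 3.07 ± 0.62 in combined against Snf5-null and fell by 5.36 ± 0.99 and 3.30 ± 0.65 in Snf5-null against SS18-SSX. Calsyntenin-3 (Clstn3), a synaptic cadherin, fell by 5.16 ± 0.82 in combined and by 5.94 ± 0.91 in Snf5-null against SS18-SSX, and Dchs2 and Fat4 fell in both as well (-2.63 to -4.15).

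Of 9 known repressors of E-cadherin, 1 rose and 3 fell in combined against Snf5-null, none rose and 1 fell in combined against SS18-SSX, and 2 rose and 3 fell in Snf5-null against SS18-SSX tumours, where 49.6%, 45.0% and 48.2% of all genes were called. Snai1 fell by 2.37 ± 0.55 in combined against Snf5-null and rose by 2.77 ± 0.62 in Snf5-null against SS18-SSX (edgeR adjusted p = 0.00177 and 0.00127). Of 9 genes that cleave or process cadherins, 1 rose and 5 fell, none rose and 1 fell, and 2 rose and none fell in the same order, and the sheddase Adam10 was among them (-0.78 ± 0.20 in combined against Snf5-null and 1.22 ± 0.22 in Snf5-null against SS18-SSX). Of 17 regulators of the clustered locus, 5 rose and none fell, 1 rose and 1 fell, and 1 rose and 6 fell. The DNA methyltransferases Dnmt3a and Dnmt3b rose by 1.06 ± 0.30 and 1.48 ± 0.26 in combined against Snf5-null and fell by 1.59 ± 0.32 and 0.89 ± 0.27 in Snf5-null against SS18-SSX, and the insulator protein Ctcf rose by 0.44 ± 0.14 in combined against Snf5-null (adjusted p = 0.0181). Of 12 cytoplasmic partners of protocadherins, 2 rose and 4 fell, 2 rose and 4 fell, and 4 rose and 4 fell. Ptk2b, the kinase Pyk2 that protocadherin tails bind, fell by 4.65 ± 0.45 in combined against Snf5-null and rose by 3.23 ± 0.48 in Snf5-null against SS18-SSX (adjusted p = 4.35e-07 and 3.30e-05), beside leucocyte marker sums that were also highest in Snf5-null tumours.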

How the data were processed

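Poly(A) RNA of 22 tumours was sequenced from stranded libraries, per the labels. Raw gene counts were deposited as whole numbers. Named per the submitters' processing notes, with no role or order, are featureCounts, RSEM, STAR 2.7.5a, cutadapt, DESeq2 and mm10, and the handling of reads shared by genes is not given there. Of 48440 IDs, 48058 matched GENCODE M21. Genes were filtered with filterByExpr (18929 tested) and fitted with edgeR 4.0.16 in R 4.3.3 (TMM, quasi-likelihood test, 6 group means, Benjamini-Hochberg adjustment over all genes tested, threshold 0.05). A genotype comparison averages its Cre groups on the log2 scale, so a fold can differ from the ratio of mean CPM. Scripts were tested on simulated data. DESeq2 1.42.0, RLE scaling, no low-count filter, genotype alone, each Cre label alone, N43L and N43R summed, and every library left out in turn were alternatives, and a replicate block and the least correlated libraries left out were added after seeing the data. The naming rule took, per genotype comparison, the 8 non-clustered and 4 clustered called members with the largest fold changes, all type I genes, Cdh5 and Cdh11; other names were chosen with their values seen. Members and lists were chosen with earlier results of these data known.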

Additional observations from a re-analysis of the deposited data

Results flagged for a closer look

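Single libraries stood apart in 4 of 81 groups of a named member, by the gap between a library and its nearest neighbour relative to the range of the group, and chance gives about 1 in 20. Only combined TATCre, combined Myf5Cre and Snf5-null TATCre had the 4 or more libraries that this needs, so the other groups could not be flagged. All 4 flagged cases lay in Snf5-null TATCre tumours. In library N1, Pcdh9 stood at 5.69 on the log2 CPM scale, against 2.93 to 3.67 in the other 4 libraries (886 counts, against 137 to 199). Cdh11 stood at 5.17 in N1, against 8.71 to 9.86, and Pcdhb2 at 0.80 in N1, against 3.25 to 4.06. Pcdhb1 stood at -2.61 in N51, which is 1 count against 0 in the others. N1 also had the highest satellite cell and myoblast marker sum of all libraries (2253 CPM), and the part of those cells in these values was not tested.

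The Cre difference was unlike between combined and Snf5-null tumours for 3 members by an interaction test in edgeR. It was 4.31 for Cdh13, -6.56 for Pcdh9 and 4.69 for Pcdhgb6 on the log2 scale, combined minus Snf5-null. The Cdh13 call held whichever library was left out. The Pcdh9 call was lost in 15 of 22 fits that left out 1 library (-3.27, adjusted p = 0.178, without combined TATCre 78780) and with N43L and N43R summed (-6.40, 0.0781), and the Pcdhgb6 call in 7 of 22 (4.19 to 5.17, up to 0.122).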

How the results depend on the processing

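With DESeq2, 16 members were called for Cre in Snf5-null tumours (4 with edgeR), 4 for Cre in combined (0), 5 in the interaction (3) and 1 for Cre in SS18-SSX tumours (0). Within Myf5Cre libraries 13 members were higher in combined against Snf5-null, and within TATCre libraries 4 were higher and 3 lower (22 and 8 with all). Of all genes 13.8% were higher within Myf5Cre libraries, and 8.73% were higher and 12.7% lower within TATCre libraries (29.1% and 20.5% with all). Without combined TATCre N49, Snf5-null TATCre N1 and SS18-SSX Myf5Cre N381 together, the least correlated library of each genotype and an alternative chosen after seeing the data, 13 were lower in combined against Snf5-null (8), 10 higher in combined against SS18-SSX (6), 15 higher in Snf5-null against SS18-SSX (9), 17 called for Cre in Snf5-null, 2 for Cre in combined and 7 in the interaction. In that fit 26.5% of all genes were lower in combined against Snf5-null (20.5% with all libraries). Higher were 22.6% in combined against SS18-SSX (23.1%) and 25.9% in Snf5-null against SS18-SSX (22.3%). Of its 19354 genes 1298 were higher and 1612 lower for Cre in Snf5-null, 125 and 158 for Cre in combined, and 827 and 603 in the interaction. With each library left out in turn, the calls ranged from 15 to 24 higher and 7 to 10 lower in combined against Snf5-null, from 5 to 9 and 11 to 17 in combined against SS18-SSX, from 7 to 11 and 15 (without SS18-SSX N381) to 28 in Snf5-null against SS18-SSX, from 1 to 11 for Cre in Snf5-null, from 0 to 1 for Cre in combined and from 1 to 5 in the interaction. In the same fits 15.9% to 34.6% of all genes were higher and 18.7% to 23.4% lower in combined against Snf5-null. In combined against SS18-SSX these shares were 20.2% to 26.2% and 17.0% to 24.3%. In Snf5-null against SS18-SSX they were 21.0% to 27.0% and 18.9% to 27.5%. For Cre in Snf5-null, calls among all genes ran from 66 higher and 56 lower (without Myf5Cre N31) to 877 and 1082 (without TATCre N1).

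The sign turned for Cdh11 in Snf5-null against SS18-SSX with genotype alone (0.0217) and for Cdh13 in combined against Snf5-null within Myf5Cre libraries (0.0885). The cause was not tested. RLE scaling moved the median log2 fold change of all genes in combined against Snf5-null to 0.12, where TMM gave 0.24. Low counts limit Pcdha1, Pcdha2 and Pcdhb1. No pair of the 6 groups shared more than 1 tag, and the labels do not say what a shared tag means. Combined and Snf5-null tumours shared tags N1 and N49, and a replicate block on these, chosen after seeing the data, gave 20 higher and 9 lower (19 and 8 of them called without it), with the calls of Pcdhb6 (1.22, 0.0853) and Pcdhgb1 (1.87, 0.0535) lost. With the block 28.0% of all genes were higher and 20.4% lower. Deviations of the same-tagged libraries correlated at -0.181 (N1) and -0.0581 (N49).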
